A study of Mus musculus with 12 samples.

Results

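The genes described here are 42 genes of the extracellular matrix, of hepatic stellate cells and of the endothelium that lines the liver sinusoids, taken by gene symbol from the 24537 genes of a liver RNA-Seq table. All 42 symbols were found. By role, they are 5 fibrillar and fibril-associated collagens, 5 microfibril and network collagens, 7 basement membrane and adhesive glycoproteins, 4 small proteoglycans and collagen-binding proteins, 5 crosslinking enzymes and protease inhibitors, 3 secreted growth factors, 4 stellate cell genes, 5 sinusoidal endothelial genes and 4 general endothelial genes. The mice were males of the inbred strain C57Bl/6J, aged 6 weeks at the start and kept in single housing. Con mice ate ad libitum and CR mice were given 30% less food than Con mice ate. The CR food was a fortified form of the Con diet, given daily at a fixed hour. Diet formula and meal timing thus differ together with the amount of food and cannot be told apart from it. Of each diet, 3 mice were sampled at day 25 and 3 at day 30 of the intervention, after labeling with heavy water. The days were chosen to lie before and after a slowing of hepatic protein synthesis under CR, and the comparison asks how hepatic gene expression differs between the diets at each of them. Depth was 15748932 to 23345810 reads per library, of which 78.1% to 84.3% lay on exons.

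Levels are in FPKM, which scales exonic reads by exon length and by the depth of the library. Single mice are listed as replicates 1, 2 and 3, except that the Con group of day 30, where no label ties a column to a mouse, follows the columns numbered 10, 11 and 12. Differences are log2 fold changes ± SE of CR against Con on the log2(FPKM + 1) scale (n = 3 mice per group), which understates changes of genes with low FPKM. They come from 1 limma model across 10593 genes, those that reached an FPKM of 1 in 3 or more libraries, and the threshold for a change was a p under 0.1 after Benjamini-Hochberg adjustment across them. The filter passed 36 of the 42 members. Col1a1, Col5a1, Col6a2, Lox, Loxl1 and Timp1 did not pass and have no test. Des passed only through CR libraries, 3 of which reached an FPKM of 1, while none of the 6 Con libraries did.

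The extracellular matrix of the liver is sparse between hepatocytes and the sinusoids and is made largely by stellate cells, which store vitamin A in the space beneath the endothelium and turn into collagen-producing cells after injury. Sinusoidal endothelial cells have open pores, lack a continuous basement membrane and clear waste molecules from blood through scavenger receptors. Hepatocytes also secrete matrix proteins, among them plasma fibronectin and collagen XVIII.

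At day 30, 12 of the 36 tested members were higher in CR mice and 0 were lower, while 8.33% of all genes tested were higher and 16.4% were lower. They were Timp3, Ctgf, Ecm1, Lum, Bmp2, Fcgr2b, Reln, Clec4g, Dcn, Stab1, Stab2 and Des. Without Des, which entered the test only through CR libraries, 11 of 35 members were higher, beside 8.13% of the 10387 genes that reached an FPKM of 1 in libraries of both diets. This count was added after the values were seen. The median log2 fold change of the tested members was 0.31, against -0.068 over all genes tested. Timp3 and Ctgf also differed by 1 or more on the log2 scale, as did 2.21% of all genes tested with an adjusted p under 0.1, and 1 of the 2 did without the Con mouse of column 10, without that of column 11 or without CR replicate 3. All 3 CR mice lay above all 3 Con mice for 17 of the 36 members, against 12.1% of all genes tested, and below them for 0 members, against 24.3% of all genes tested. In bulk liver RNA, fewer cells of a type and less RNA per cell cannot be told apart, nor can more of either. Without the Con mouse of column 12, 7 members passed at day 30, and without CR replicate 2 the median was 0.18. The split of calls over all genes moved with the scaling between libraries. It was 33.7% higher as deposited, 51.6% with median-ratio scaling, 50.7% with quantile normalization and 29.0% with TPM. Under each of median-ratio scaling and quantile normalization, 18 members passed, all higher. Of all genes tested, 1319 were higher and 1238 lower with the first, and 1252 and 1217 with the second. With TPM, 12 members were higher and Col4a2 was lower, and Col4a2 was also lower with voom.

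At day 25, fewer members passed. Timp3, Reln and Stab2 were higher in CR mice, which is 3 of the 36 members beside 5.60% of all genes tested. Col4a1 and Col4a2 were lower, which is 2 of the 36 beside 9.34% of all genes tested. With replicate numbers as a replicate block, 6 members passed, since Ecm1 was also higher at 0.42, adjusted p = 0.0244. In limma, 0 members both passed and differed by 1 or more on the log2 scale, where 1.48% of all genes tested did. The count was also 0 with voom on recovered reads. An unadjusted p under 0.05 was found for 7 of the 36 members, beside 2635 of the 10593 genes tested. The median log2 fold change of the tested members was 0.072, against -0.039 over all genes tested. All CR mice lay above all Con mice for 4 members and below them for 4 members, against 10.2% and 18.0% of all genes tested. The count rests on single mice. It was 1 without Con replicate 1, 2 without Con replicate 3, 2 without CR replicate 1, and 3 without CR replicate 2 or without CR replicate 3. The median was -0.0076 without Con replicate 3, 0.011 without CR replicate 2, 0.039 without CR replicate 1, 0.045 without Con replicate 1 and 0.15 without Con replicate 2. Over all genes, 37.5% of calls were higher as deposited, 53.8% with median-ratio scaling, 47.8% with quantile normalization and 33.9% with TPM.

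Over both days, with day as a covariate and 6 mice per diet, 12 members were higher and 2 were lower, beside 14.5% and 26.1% of all genes tested. The 14 were the members that passed at either day. Without Des, 11 of 35 were higher and 2 were lower, beside 14.3% and 25.4% of genes that reached an FPKM of 1 in both diets. The median log2 fold change of the tested members was 0.17, against -0.054 over all genes tested. The CR effect did not pass a test of the difference between days for any member in limma, and voom also gave 0 members. In limma, 3 members had an unadjusted p under 0.05 in this test, beside 366 of the 10593 genes tested. Of all genes tested, 0.00944% passed this test, so the larger count at day 30 is not shown to be a larger effect. Between day 25 and day 30, 0 members passed within CR mice, where 0.321% of all genes tested did. There, 3 members had an unadjusted p under 0.05, beside 917 of the 10593 genes tested. Within Con mice, 0 members and 0% of all genes tested passed, and 6 members had an unadjusted p under 0.05, beside 765 of the 10593 genes tested. With voom, 0 members passed within either diet. Without CR replicate 2 of day 30, Lyve1 passed within CR mice (-0.77, adjusted p = 0.0841), and without Con replicate 1 of day 25, Ctgf passed within Con mice (-1.30, adjusted p = 0.0767). Calls over all genes were 35.7% higher as deposited, 52.8% with median-ratio scaling, 50.6% with quantile normalization and 31.3% with TPM.

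**Figure D1:**
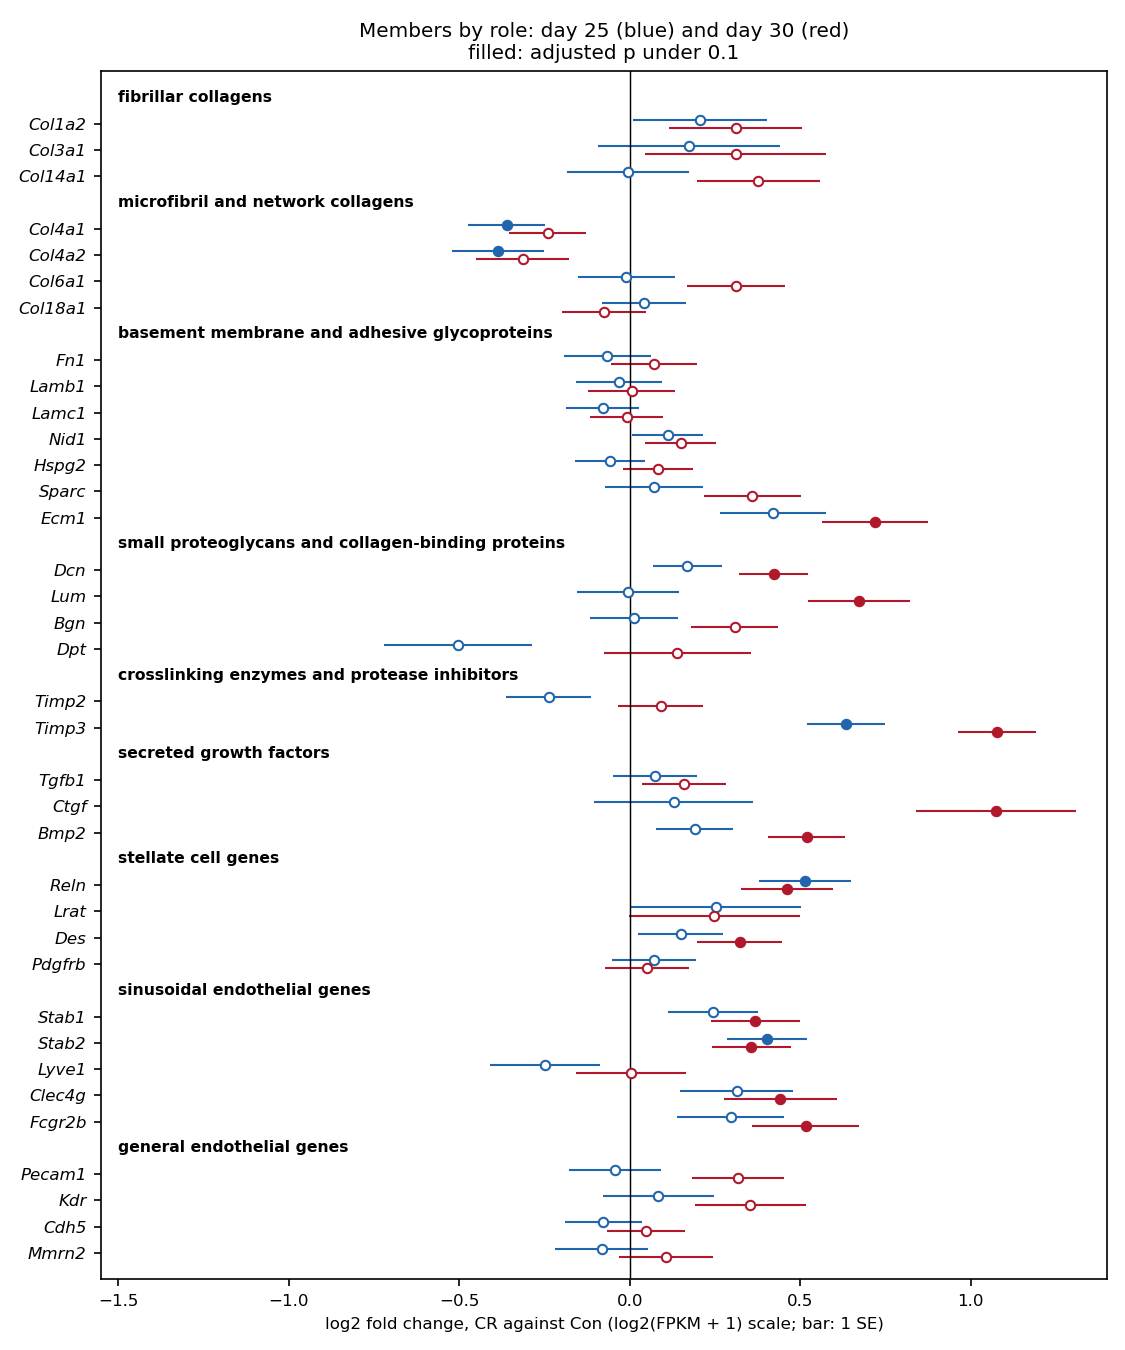
Log2 fold changes of CR against Con on the log2(FPKM + 1) scale for the 36 tested members, grouped by role, at day 25 in blue and at day 30 in red, with 1 SE as the bar and a filled point for an adjusted p under 0.1. At day 30 the filled points are 12, all right of 0, and at day 25 they are 3 right of 0 and 2, Col4a1 and Col4a2, left of it.

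Fibrillar and fibril-associated collagens were at low levels, and 0 of the 3 tested passed at either day in limma or in voom, with 0 at an unadjusted p under 0.05. Beside them, 5.60% of all genes tested were higher and 9.34% lower at day 25, and 8.33% and 16.4% at day 30. Col14a1, which is not itself fibrillar but binds to the surface of fibrils, was the most abundant of the 5. At day 25, its FPKM was 2.93, 4.48 and 2.85 in Con mice and 3.61, 4.20 and 2.42 in CR mice. At day 30, its FPKM was 3.85, 3.25 and 2.82 in Con mice and 3.90, 5.59 and 4.35 in CR mice. The mice overlapped at day 25, while at day 30 the CR mice lay just above the Con mice, with the lowest CR mouse close to the highest Con mouse. CR against Con gave a log2 fold change of -0.0043 ± 0.18, adjusted p = 0.993 at day 25 and 0.38 ± 0.18, adjusted p = 0.171 at day 30. With median-ratio scaling or quantile normalization Col14a1 passed at day 30 and its sign at day 25 turned. Col1a2 and Col3a1, chains of the main tensile collagens I and III, had log2 fold changes of 0.21 and 0.17 at day 25 and of 0.31 and 0.31 at day 30. CR replicate 2 at day 30 had the highest FPKM of all 12 mice for both, at 2.64 for Col1a2 and 3.70 for Col3a1. Col1a1, the other chain of collagen I, ranged from 0.277 to 0.972 FPKM and Col5a1, a chain of a collagen that starts fibrils, from 0.484 to 0.972 FPKM, both below the filter.

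Among microfibril and network collagens, the pair of type IV collagen chains was lower in CR mice. Col4a1 and Col4a2 encode the chains that twist together into the common collagen IV molecule of basement membranes. At day 25, Col4a1 FPKM was 3.86, 3.97 and 3.68 in Con mice and 2.80, 3.00 and 2.52 in CR mice. At day 30, Col4a1 FPKM was 3.52, 3.58 and 4.01 in Con mice and 2.57, 3.81 and 2.66 in CR mice. All CR mice were below all Con mice at day 25, and at day 30 CR replicates 1 and 3 were low while CR replicate 2 lay within the Con range. The log2 fold change of Col4a1 was -0.36 ± 0.11, adjusted p = 0.0661 at day 25, -0.24 ± 0.11, adjusted p = 0.164 at day 30 and -0.30 ± 0.078, adjusted p = 0.0112 over both days. The call at day 25 was lost without Con replicate 1 of day 25, Con replicate 2 of day 25, Con replicate 3 of day 25, CR replicate 1 of day 25 or CR replicate 3 of day 25 (adjusted p from 0.114 to 0.199). Without CR replicate 2 of day 30, adjusted p at day 30 was 0.0241 for Col4a1 and 0.0180 for Col4a2. Col4a2 also passed as lower at day 30 with TPM or voom (adjusted p from 0.0889 to 0.0930).

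Col4a2 FPKM at day 25 was 3.53, 3.88 and 4.59 in Con mice and 2.86, 3.12 and 2.49 in CR mice. At day 30, Col4a2 FPKM was 4.07, 4.15 and 3.89 in Con mice and 2.79, 4.11 and 2.44 in CR mice. As for Col4a1, all CR mice were below all Con mice at day 25, and CR replicate 2 at day 30 lay among the Con mice. The log2 fold change of Col4a2 was -0.39 ± 0.14, adjusted p = 0.0976 at day 25, -0.31 ± 0.14, adjusted p = 0.134 at day 30 and -0.35 ± 0.093, adjusted p = 0.0125 over both days. Its call at day 25 was lost without Con replicate 1 of day 25, Con replicate 2 of day 25, Con replicate 3 of day 25, CR replicate 1 of day 25, CR replicate 2 of day 25, CR replicate 3 of day 25, the Con mouse of column 10, the Con mouse of column 11, the Con mouse of column 12 or CR replicate 1 of day 30 (adjusted p from 0.106 to 0.272), and also with median-ratio scaling (adjusted p = 0.118), quantile normalization (adjusted p = 0.154), no trend (adjusted p = 0.103) and, as for Col4a1, no filter (adjusted p = 0.173 and 0.118). Both chains passed over both days under each alternative in which they were tested. The level per length was close to equal for the 2 chains, with mean FPKM of 3.84 for Col4a1 and 4.002 for Col4a2 in Con mice at day 25.

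Col18a1, the core of a basement membrane proteoglycan and the source of endostatin, was the most abundant member of this role. Its FPKM at day 25 was 162, 207 and 167 in Con mice and 184, 185 and 180.2 in CR mice. At day 30, Col18a1 FPKM was 177, 139.7 and 182 in Con mice and 156, 154 and 159.8 in CR mice. The groups overlapped at both days. On the log2 scale, CR against Con gave 0.042 ± 0.12, adjusted p = 0.874 at day 25 and -0.074 ± 0.12, adjusted p = 0.717 at day 30, and its sign turned with quantile normalization at day 25 and with median-ratio scaling at day 30. Col6a1, a chain of the microfibril collagen VI, had a log2 fold change of -0.0094 at day 25 and of 0.31 at day 30, when all CR mice lay above all Con mice, and it passed at day 30 with median-ratio scaling and with quantile normalization. Col6a2, another chain of collagen VI, ranged from 0.513 to 1.02 FPKM and was not tested.

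Most basement membrane and adhesive glycoproteins did not pass. The exception was Ecm1, a secreted glycoprotein that binds matrix proteins and that holds latent TGF-beta in an inactive state in liver. At day 25, Ecm1 FPKM was 37.2, 52.1 and 45.8 in Con mice and 51.5, 71.8 and 58.5 in CR mice. At day 30, Ecm1 FPKM was 42.8, 32.8 and 31.6 in Con mice and 60.3, 59.9 and 56.6 in CR mice. The groups overlapped narrowly at day 25 and were well apart at day 30, where the 3 CR mice were close together. The fit gave a log2 fold change of 0.42 ± 0.16, adjusted p = 0.115 at day 25 and 0.72 ± 0.16, adjusted p = 0.00885 at day 30. With the replicate block, adjusted p of Ecm1 at day 25 was 0.0244. It also passed at day 25 without Con replicate 2 of day 25, CR replicate 1 of day 25 or the Con mouse of column 10 (adjusted p from 0.0840 to 0.0960) and with median-ratio scaling, TPM, quantile normalization and voom.

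Fn1, fibronectin, was the most abundant of all members. At day 25, Fn1 FPKM was 222, 246 and 277 in Con mice and 249, 245 and 217 in CR mice. At day 30, Fn1 FPKM was 218, 199.5 and 226 in Con mice and 201, 214 and 265 in CR mice. Con and CR mice overlapped at both days and no mouse stood far from the rest. As a log2 fold change, the difference was -0.065 ± 0.13, adjusted p = 0.802 at day 25 and 0.070 ± 0.13, adjusted p = 0.740 at day 30. Sparc, a protein that binds collagen and calcium, had a log2 fold change of 0.36 ± 0.14, adjusted p = 0.104 at day 30 with all CR mice above all Con mice, close to the threshold, and it passed with median-ratio scaling, quantile normalization, voom and a filter of FPKM 5, and without CR replicate 2 of day 25, CR replicate 3 of day 25 or CR replicate 3 of day 30 (adjusted p from 0.0847 to 0.0971). The laminin chains Lamb1 and Lamc1, the laminin-binding linker Nid1 and the large proteoglycan Hspg2 had log2 fold changes between -0.079 and 0.11 at day 25 and between -0.0089 and 0.15 at day 30. Their FPKM ranged from 0.820 to 2.93 over the 12 mice.

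Of the small proteoglycans and collagen-binding proteins, Dcn and Lum were higher in CR mice at day 30. Dcn, decorin, coats collagen fibrils and binds TGF-beta, and it was the most abundant gene of this role. Dcn FPKM at day 25 was 50.2, 46.1 and 43.5 in Con mice and 52.6, 51.9 and 53.0 in CR mice. At day 30, Dcn FPKM was 46.5, 43.8 and 40.0 in Con mice and 54.2, 65.5 and 56.2 in CR mice. All CR mice were above all Con mice at each day, by a small margin at day 25 and a larger one at day 30. The log2 fold change was 0.17 ± 0.10, adjusted p = 0.327 at day 25 and 0.42 ± 0.10, adjusted p = 0.0155 at day 30.

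Lum, lumican, is a relative of decorin that controls the width and spacing of collagen fibrils. Lum FPKM at day 25 was 2.31, 1.79 and 1.49 in Con mice and 1.98, 2.02 and 1.51 in CR mice. At day 30, Lum FPKM was 1.42, 1.88 and 1.44 in Con mice and 2.32, 3.33 and 3.77 in CR mice. At day 25 the groups lay in the same range, and at day 30 each CR mouse was above each Con mouse, with CR replicate 1 the closest to the Con mice. CR against Con gave a log2 fold change of -0.0060 ± 0.15, adjusted p = 0.987 at day 25 and 0.67 ± 0.15, adjusted p = 0.0103 at day 30, and the sign at day 25 turned with median-ratio scaling and quantile normalization. Lum rested on 52 to 182 reads per library. Over both days its log2 fold change was 0.33 ± 0.14, adjusted p = 0.0816, and this call was lost without Con replicate 3 of day 25, the Con mouse of column 10, the Con mouse of column 11, the Con mouse of column 12, CR replicate 2 of day 30 or CR replicate 3 of day 30 (adjusted p from 0.1198 to 0.172), without a filter (adjusted p = 0.146) and with TPM (adjusted p = 0.113). Bgn, biglycan, had a log2 fold change of 0.013 at day 25 and 0.31 at day 30, and it passed at day 30 with the same 2 scalings and without the Con mouse of column 10 (adjusted p = 0.0307). Dpt, dermatopontin, which binds decorin, was at 1.87, 2.04 and 1.93 in Con mice and 1.62, 1.44 and 0.397 in CR mice at day 25, with all CR mice below all Con mice. CR replicate 3 was far below the others at 13 reads, and the log2 fold change of -0.50 ± 0.22, adjusted p = 0.171 did not pass.

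Crosslinking enzymes were below the filter, while the protease inhibitor Timp3 had the smallest adjusted p of all members at both days. Timp3 binds to the matrix and inhibits metalloproteinases, among them Adam17. At day 25, Timp3 FPKM was 4.53, 5.45 and 3.97 in Con mice and 8.52, 7.04 and 7.67 in CR mice. At day 30, Timp3 FPKM was 3.45, 4.05 and 3.63 in Con mice and 7.83, 9.36 and 9.71 in CR mice. Every CR mouse exceeded every Con mouse at each day, and the lowest CR mouse of either day was above the highest Con mouse of either day. On the log2 scale, CR against Con gave 0.63 ± 0.12, adjusted p = 0.00639 at day 25, 1.08 ± 0.12, adjusted p = 0.000156 at day 30 and 0.86 ± 0.10, adjusted p = 5.97e-05 over both days. The ratio of mean FPKM was 1.66 at day 25 and 2.42 at day 30. Timp3 passed at both days with each mouse left out and under every other alternative run.

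Timp2, an inhibitor that also takes part in the activation of Mmp2, had a log2 fold change of -0.24 ± 0.12, adjusted p = 0.262 at day 25, with all CR mice below all Con mice, and of 0.091 ± 0.12, adjusted p = 0.652 at day 30. Lox and Loxl1, enzymes that crosslink collagen and elastin, were at 0 to 5 reads and 9 to 28 reads per library. Timp1, the inhibitor that rises in fibrosis, was at 0 to 9 reads per library, with CR replicate 2 at day 30 the highest at 0.526 FPKM. Neither Lox, Loxl1 nor Timp1 was tested. Lox FPKM at day 25 was 0.0610, 0.0490 and 0.0270 in Con mice and 0.0110, 0.0140 and 0.0110 in CR mice. All CR mice were below all Con mice there, on these few reads.

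Among secreted growth factors, Ctgf and Bmp2 were higher in CR mice at day 30. Ctgf, a matricellular protein induced by TGF-beta and YAP, was the most abundant. Ctgf FPKM at day 25 was 3.79, 5.68 and 7.53 in Con mice and 7.13, 4.45 and 7.04 in CR mice. At day 30, Ctgf FPKM was 1.71, 1.74 and 2.91 in Con mice and 4.74, 4.72 and 7.26 in CR mice. At day 25 the groups overlapped, and at day 30 all CR mice were above all Con mice. The Con mice at day 30 were below every Con mouse at day 25, while CR mice covered a similar range at both days. The fit gave a log2 fold change of 0.13 ± 0.23, adjusted p = 0.786 at day 25 and 1.07 ± 0.23, adjusted p = 0.00915 at day 30. Within Con mice, the log2 fold change of day 30 against day 25 was -1.08 with adjusted p = 0.321, and within CR mice it was -0.13 with adjusted p = 0.906.

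Bmp2, a ligand that sinusoidal endothelial cells release and that controls hepcidin in hepatocytes, gave closely spaced values. At day 25, Bmp2 FPKM was 4.09, 3.85 and 3.02 in Con mice and 4.38, 3.83 and 4.66 in CR mice. At day 30, Bmp2 FPKM was 3.62, 3.19 and 2.68 in Con mice and 4.98, 4.74 and 5.10 in CR mice. The groups overlapped at day 25 and did not at day 30, when the 3 CR mice were higher than any other mouse of the series. As a log2 fold change, the difference was 0.19 ± 0.11, adjusted p = 0.319 at day 25 and 0.52 ± 0.11, adjusted p = 0.00908 at day 30. Tgfb1, the main fibrogenic cytokine of the liver, had a log2 fold change of 0.073 at day 25 and 0.16 at day 30, with overlapping groups.

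Of the 4 stellate cell genes, Reln passed at day 30, as did Des, whose test is set partly by the filter. Reln, reelin, is a secreted glycoprotein made in liver by quiescent stellate cells, and it was the most abundant of this role. At day 25, Reln FPKM was 2.88, 3.52 and 3.00 in Con mice and 5.38, 5.44 and 3.98 in CR mice. At day 30, Reln FPKM was 3.69, 2.86 and 2.50 in Con mice and 3.87, 4.99 and 4.66 in CR mice. All CR mice were above all Con mice at each day, with narrow gaps. The log2 fold change was 0.51 ± 0.14, adjusted p = 0.0347 at day 25 and 0.46 ± 0.14, adjusted p = 0.0366 at day 30. The call at day 25 was lost without Con replicate 1 of day 25 or CR replicate 1 of day 25 (adjusted p from 0.108 to 0.114), and the call at day 30 was lost without the Con mouse of column 12 or CR replicate 2 of day 30 (adjusted p from 0.106 to 0.129).

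Des, desmin, is the intermediate filament that marks stellate cells in rodent liver. Des FPKM at day 25 was 0.623, 0.748 and 0.796 in Con mice and 0.772, 1.14 and 0.830 in CR mice. At day 30, Des FPKM was 0.911, 0.522 and 0.450 in Con mice and 1.05, 0.909 and 1.11 in CR mice. Con and CR mice overlapped at both days, since at day 30 the Con mouse of column 10 was just above CR replicate 2. CR against Con gave a log2 fold change of 0.15 ± 0.12, adjusted p = 0.496 at day 25 and 0.32 ± 0.12, adjusted p = 0.0955 at day 30, on 31 to 79 reads per library. Because Des passed the filter only through CR libraries, a difference in this direction is partly set by the filter. The call was lost without Con replicate 1 of day 25, Con replicate 2 of day 25, Con replicate 3 of day 25, CR replicate 1 of day 25, CR replicate 3 of day 25, the Con mouse of column 11, the Con mouse of column 12, CR replicate 1 of day 30, CR replicate 2 of day 30 or CR replicate 3 of day 30 (adjusted p from 0.103 to 0.271), without a filter (adjusted p = 0.104), with a pseudocount of 0.1 (adjusted p = 0.101) and with only the groups compared in the model (adjusted p = 0.147). Over both days Des was at 0.24 ± 0.088, adjusted p = 0.0551, a call lost without CR replicate 2 of day 25, the Con mouse of column 11, the Con mouse of column 12, CR replicate 1 of day 30 or CR replicate 3 of day 30 (adjusted p from 0.107 to 0.122). Lrat, which esterifies vitamin A for storage, and Pdgfrb, the receptor that drives stellate cell growth, had log2 fold changes of 0.25 and 0.051 at day 30 and of 0.25 and 0.072 at day 25, with overlapping groups.

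Of the 5 sinusoidal endothelial genes, 4 were higher in CR mice at day 30, beside 8.33% of all genes tested. Stab1 and Stab2 encode the stabilins, scavenger receptors that take up oxidized lipoproteins and, for Stab2, hyaluronan. At day 25, Stab2 FPKM was 3.74, 5.43 and 4.03 in Con mice and 6.31, 6.17 and 5.75 in CR mice. At day 30, Stab2 FPKM was 4.28, 3.68 and 3.92 in Con mice and 4.98, 5.03 and 6.08 in CR mice. All CR mice lay above all Con mice at each day, although Con replicate 2 at day 25 came close to the CR mice. The log2 fold change of Stab2 was 0.40 ± 0.12, adjusted p = 0.0504 at day 25 and 0.36 ± 0.12, adjusted p = 0.0552 at day 30. The call at day 30 was lost without the Con mouse of column 11, the Con mouse of column 12 or CR replicate 3 of day 30 (adjusted p from 0.122 to 0.164). That at day 25 was lost without Con replicate 1 of day 25, Con replicate 3 of day 25, CR replicate 1 of day 25 or CR replicate 2 of day 25 (adjusted p from 0.103 to 0.170) and with only the groups compared in the model (adjusted p = 0.103).

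Stab1 FPKM at day 25 was 3.27, 5.42 and 3.94 in Con mice and 5.08, 5.16 and 5.01 in CR mice. At day 30, Stab1 FPKM was 3.67, 3.31 and 3.20 in Con mice and 5.23, 4.09 and 4.74 in CR mice. Con replicate 2 at day 25 was the highest mouse of all, so the groups overlapped at day 25, while at day 30 they did not. The log2 fold change of Stab1 was 0.24 ± 0.13, adjusted p = 0.272 at day 25 and 0.37 ± 0.13, adjusted p = 0.0742 at day 30. It passed at day 25 without Con replicate 2 of day 25 (adjusted p = 0.0491). The call at day 30 was lost without the Con mouse of column 10, the Con mouse of column 11, the Con mouse of column 12, CR replicate 1 of day 30 or CR replicate 3 of day 30 (adjusted p from 0.101 to 0.232) and without a filter (adjusted p = 0.133).

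Clec4g, a lectin of the sinusoidal endothelium, was the most abundant of the 5 genes. Clec4g FPKM at day 25 was 16.6, 22.9 and 16.4 in Con mice and 18.7, 23.1 and 28.8 in CR mice. At day 30, Clec4g FPKM was 18.4, 16.7 and 16.4 in Con mice and 27.9, 21.0 and 22.5 in CR mice. The groups overlapped at day 25 and were apart at day 30. On the log2 scale, CR against Con gave 0.31 ± 0.17, adjusted p = 0.263 at day 25 and 0.44 ± 0.17, adjusted p = 0.0875 at day 30. This call was lost without CR replicate 2 of day 25, the Con mouse of column 10, the Con mouse of column 11, the Con mouse of column 12, CR replicate 1 of day 30 or CR replicate 3 of day 30 (adjusted p from 0.1003 to 0.287) and without a filter (adjusted p = 0.146).

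Fcgr2b, the inhibitory Fc receptor through which these cells clear immune complexes, passed at day 30. At day 25, Fcgr2b FPKM was 10.4, 13.3 and 7.39 in Con mice and 12.4, 11.6 and 14.1 in CR mice. At day 30, Fcgr2b FPKM was 9.79, 10.9 and 11.3 in Con mice and 16.4, 14.7 and 15.9 in CR mice. At day 25 the CR mice lay inside the wide range of the Con mice or just above it, and at day 30 every CR mouse was above every Con mouse. The fit gave a log2 fold change of 0.30 ± 0.16, adjusted p = 0.264 at day 25 and 0.52 ± 0.16, adjusted p = 0.0418 at day 30. The call was lost without the Con mouse of column 10 or CR replicate 1 of day 30 (adjusted p from 0.122 to 0.127), and at day 25 it passed without Con replicate 2 of day 25 (adjusted p = 0.0638). Lyve1, a hyaluronan receptor, was the exception, at 4.83, 5.72 and 3.95 in Con mice and 4.10, 4.08 and 3.46 in CR mice at day 25 and 2.23, 2.18 and 2.49 in Con mice and 2.03, 3.40 and 1.71 in CR mice at day 30. Con and CR mice overlapped at each day, with a log2 fold change of -0.25 at day 25 and 0.0032 at day 30, where the sign turned with TPM, with voom and with either smaller pseudocount. All mice of day 30 were below all mice of day 25 in both diets, and the log2 differences within Con mice (-0.81, adjusted p = 0.235) and within CR mice (-0.56, adjusted p = 0.273) did not pass.

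Of the 4 general endothelial genes, 0 passed at either day in limma, with 0 and 2 at an unadjusted p under 0.05, and voom gave 0 and 1. Over all genes tested, 5.60% were higher and 9.34% lower at day 25, and 8.33% and 16.4% at day 30. An unadjusted p under 0.05 was found for 2635 and 3353 of the 10593 genes tested at these days. Kdr, the receptor for VEGF that endothelial cells need to grow, was the most abundant. Kdr FPKM at day 25 was 4.22, 6.61 and 3.36 in Con mice and 5.26, 4.43 and 5.07 in CR mice. At day 30, Kdr FPKM was 4.04, 4.15 and 3.96 in Con mice and 4.76, 5.54 and 6.15 in CR mice. The groups overlapped at day 25, and at day 30 the CR mice were all above the Con mice, which were close together. As a log2 fold change, the difference was 0.084 ± 0.16, adjusted p = 0.800 at day 25 and 0.35 ± 0.16, adjusted p = 0.157 at day 30, and it passed at day 30 with median-ratio scaling, quantile normalization and only the groups compared, and without Con replicate 2 of day 25 or Con replicate 3 of day 25 (adjusted p from 0.0421 to 0.0981). Pecam1, an adhesion molecule of endothelial junctions, had a log2 fold change of 0.32 at day 30 with all CR mice above all Con mice, and it passed with the same 3 settings and voom, and without Con replicate 2 of day 25 or Con replicate 3 of day 25 (adjusted p from 0.0628 to 0.0996). Cdh5, the cadherin of those junctions, and Mmrn2, an endothelial matrix protein, had log2 fold changes of 0.049 and 0.11 at day 30 and of -0.077 and -0.083 at day 25.

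**Figure D2:**
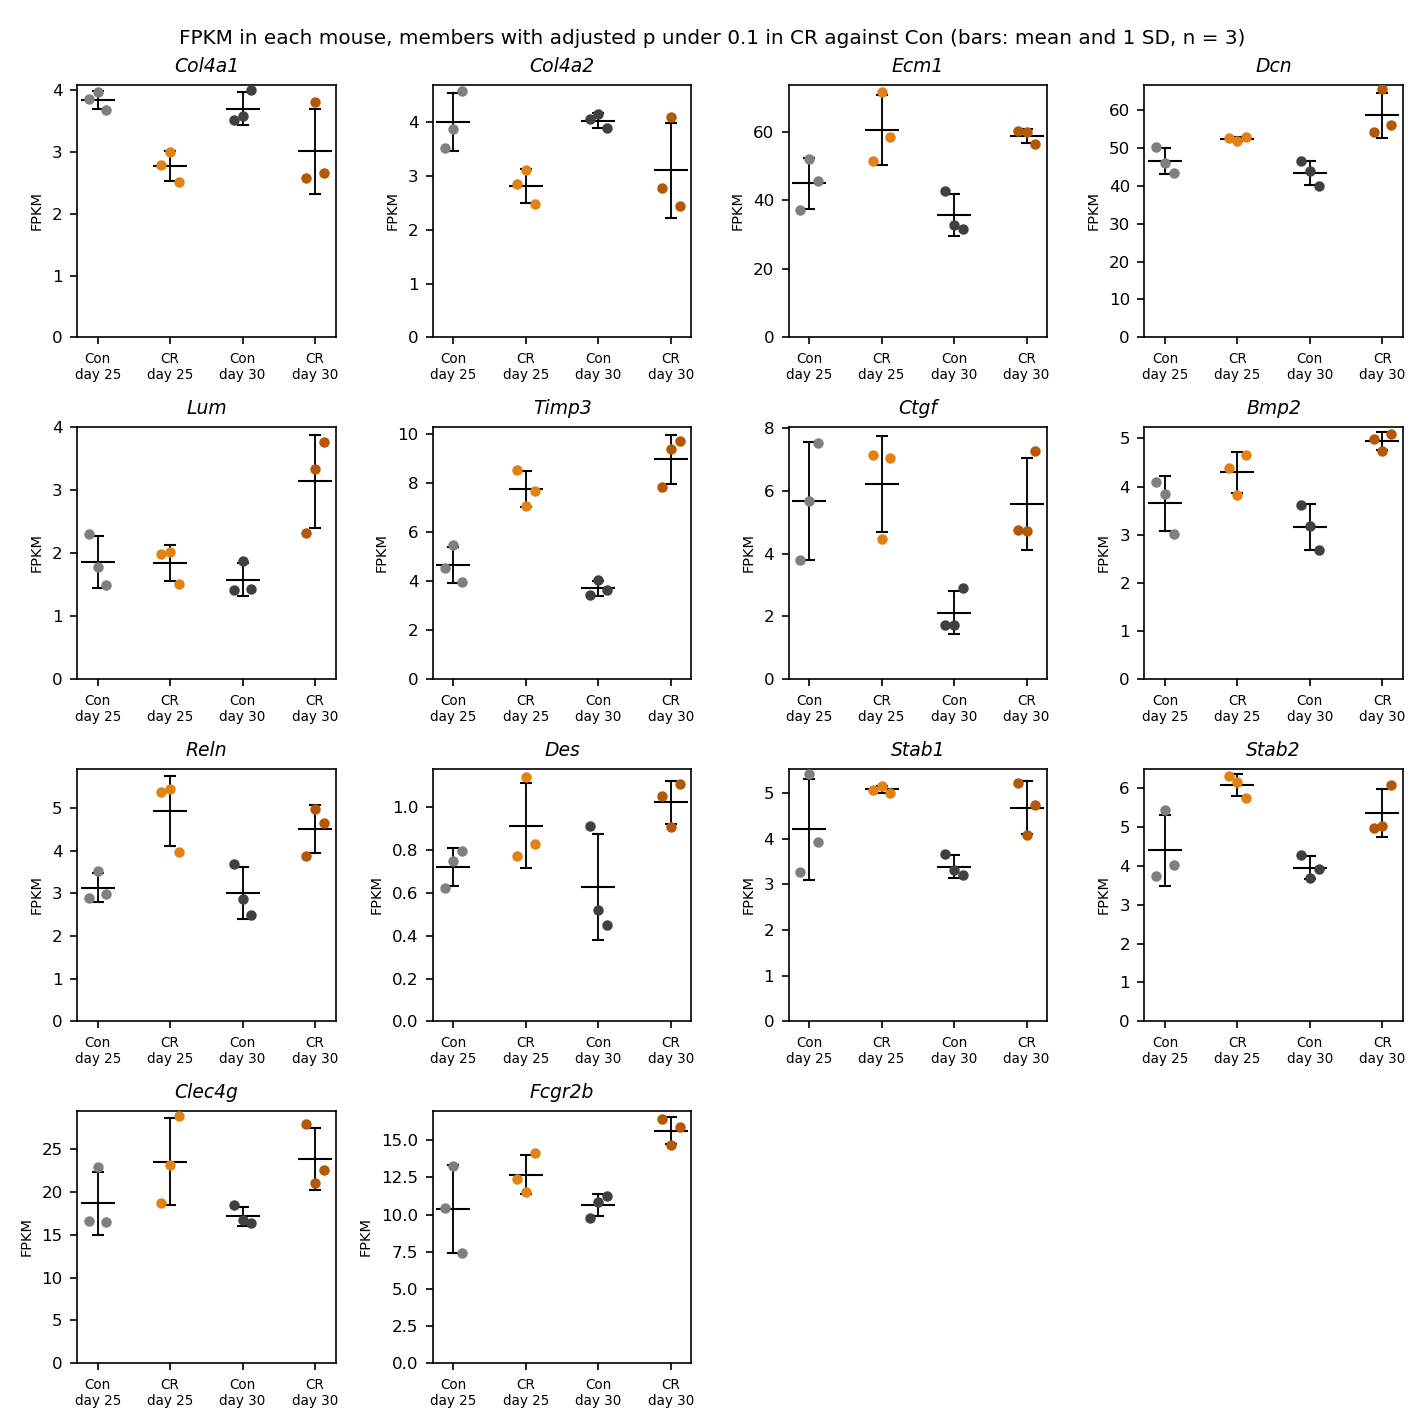
FPKM in each mouse for the 14 members with an adjusted p under 0.1 at day 25, at day 30 or over both days, with points for single mice and bars for the mean and 1 SD of 3 mice per group. Timp3 is above the Con mice in all 6 CR mice, Col4a1 and Col4a2 are low in all CR mice but CR replicate 2 at day 30, and Con mice at day 30 are low for Ctgf.

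Over the 21 collagens, glycoproteins and proteoglycans, Con replicate 2 was the highest of its group for 15 at day 25 and CR replicate 2 for 14. At day 30, CR replicate 2 was the highest of its group for 12 of the 21, while the Con mice of columns 10, 11 and 12 were highest for 9, 7 and 5. In each group, the mouse that led most often also had the highest size factor over all genes in median-ratio scaling. These factors were 1.08 for Con replicate 2 and 0.993 for CR replicate 2 at day 25. At day 30 they were 1.05 for the Con mouse of column 10 and 1.03 for CR replicate 2. The mice that led at day 25 also had the highest FPKM total over all genes in their groups, at 442167 for Con replicate 2 and 453163 for CR replicate 2, while at day 30 CR replicate 1 had the highest total of its group, at 433893 against 428255 for CR replicate 2, and was highest for 2 of the 21.

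Some members share sequence with other genes, and reads counted without strand could be split or added. Of the stretches of 50 bases in the longest Timp3 transcript, 36.0% also occur, on either strand, in transcripts of Syn3, which was at 0.293 to 0.484 FPKM. For Fcgr2b, 8.60% of stretches occur in transcripts of other genes, 4.96% in those of Fcgr3, at 1.46 to 2.99 FPKM, and 4.07% of exonic bases lie under exons of Gm38204 on the other strand. For Ctgf, 22.9% of exonic bases lie under exons of Gm15270 on the other strand. The levels of these 3 genes are uncertain. The other members that passed the threshold shared no more than 7.27% of their exonic bases with another gene, the highest being Des.

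Col4a1 and Col4a2, which were both lower over both days, lie head to head on chromosome 8 and are read in opposite directions, and their gene bodies in the table overlap by 22 bases. Promoter windows of RefSeq (GRCm38.p6) hold 250 bases before and 50 after the start of a gene. They were used for 27 of the 42 members, and a member left out here may still have a window. Both strands were searched for the GC box, spelled GGGCGG, which is in 35.7% of the 32851 windows and in those of 19 of the 27 matched members. The CCAAT box is in 37.4% of windows and in 10 members. The TATA box, spelled TATAAA, is in 13.6% of windows and in 4 members. The percentages count windows, while the member counts are by gene, and Col6a2 and Col18a1 have 2 windows each. The member counts are therefore not directly comparable with the percentages, and enrichment of a motif was not tested. The windows of Col4a1, chr8:11312777-11313076 on the minus strand, and of Col4a2, chr8:11312555-11312854 on the plus strand, share 78 bases. They are shown as the region around the starts of 2 genes that were lower together. Matches to the 3 motifs are in capitals.
Col4a1: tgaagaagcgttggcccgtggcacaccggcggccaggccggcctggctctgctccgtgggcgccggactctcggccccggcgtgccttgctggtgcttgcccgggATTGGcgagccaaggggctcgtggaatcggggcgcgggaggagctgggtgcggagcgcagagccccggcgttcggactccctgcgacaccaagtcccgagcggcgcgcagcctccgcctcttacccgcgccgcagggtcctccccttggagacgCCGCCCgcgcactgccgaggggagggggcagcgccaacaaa
Col4a2: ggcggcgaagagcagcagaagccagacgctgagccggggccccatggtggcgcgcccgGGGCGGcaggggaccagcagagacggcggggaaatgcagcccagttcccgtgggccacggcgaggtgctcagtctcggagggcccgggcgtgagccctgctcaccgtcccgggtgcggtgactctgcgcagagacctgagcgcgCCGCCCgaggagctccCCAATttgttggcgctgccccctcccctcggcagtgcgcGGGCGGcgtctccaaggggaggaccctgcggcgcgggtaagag

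Col4a1 has 1 GC box and 1 CCAAT box, Col4a2 has 3 and 1, and neither window has a TATA box. For comparison, the windows of the 2 stabilin genes, which lie on different chromosomes and were both higher at day 30, are chr14:31168592-31168891 for Stab1 and chr10:87007893-87008192 for Stab2, both on the minus strand.
Stab1: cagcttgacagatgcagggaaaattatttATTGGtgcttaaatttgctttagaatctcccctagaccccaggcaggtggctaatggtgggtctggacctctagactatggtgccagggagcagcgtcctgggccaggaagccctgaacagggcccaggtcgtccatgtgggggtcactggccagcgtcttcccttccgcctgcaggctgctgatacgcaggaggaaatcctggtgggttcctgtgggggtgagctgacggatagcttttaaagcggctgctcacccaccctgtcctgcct
Stab2: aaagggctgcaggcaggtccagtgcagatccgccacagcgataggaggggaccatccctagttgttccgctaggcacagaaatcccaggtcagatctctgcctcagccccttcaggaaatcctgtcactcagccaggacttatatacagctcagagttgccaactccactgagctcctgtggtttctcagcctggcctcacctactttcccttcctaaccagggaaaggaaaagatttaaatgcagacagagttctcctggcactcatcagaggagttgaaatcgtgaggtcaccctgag

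Stab1 has 1 CCAAT box and neither of the other 2 motifs, and Stab2 has none of the 3. GC content is 74.0% and 73.7% in the collagen windows and 57.3% and 53.0% in the stabilin windows. A match is a description of the letters only.

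Other genes of the matrix were counted from lists of the pathway. Of 46 other matrix proteins, 16 were tested and at day 30 5 were higher and 3 were lower. In this and the other lists, counts at day 30 stand beside 8.33% higher and 16.4% lower over all genes tested. Vtn, vitronectin, a plasma adhesion protein, was the most abundant at a mean of 1179 FPKM, with a log2 fold change of -0.028 whose sign turned with median-ratio scaling and quantile normalization. Postn, periostin, which links collagen to other matrix proteins, and Efemp2, an elastic fibre protein, were the leading rises at 0.76 ± 0.14, adjusted p = 0.00415 and 0.58 ± 0.13, adjusted p = 0.0122. Col5a3, a minor chain of collagen V, and Col15a1, a collagen near basement membranes, were the leading falls at -1.49 ± 0.11, adjusted p = 1.68e-05 and -0.67 ± 0.11, adjusted p = 0.00225. At day 30, Col5a3 FPKM was 6.40, 6.67 and 5.93 in Con mice and 1.65, 1.71 and 1.49 in CR mice. The 3 CR mice were close together, far below all Con mice.

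Of 27 genes of collagen folding, processing and crosslinking, 15 were tested and at day 30 3 were higher and 1 was lower. P4hb, the beta subunit of prolyl hydroxylase, was the most abundant and rose, at 0.55 ± 0.11, adjusted p = 0.00499, as did P4ha1, the catalytic subunit, at 0.65 ± 0.15, adjusted p = 0.0103. Tgm2, a crosslinking enzyme, was the only gene of this list that fell, at -0.66 ± 0.17, adjusted p = 0.0186. Of 26 matrix proteases and regulators, 9 were tested, with Plg, plasminogen, the most abundant at a mean of 906 FPKM and a log2 fold change of -0.12 that did not pass. Adam17, a sheddase that Timp3 inhibits, rose at 0.35 ± 0.10, adjusted p = 0.0378, a call lost without the Con mouse of column 12 or CR replicate 1 of day 30 (adjusted p from 0.122 to 0.149), while Mmp19 and Serpine2, a serine protease inhibitor, fell at -0.56 ± 0.11, adjusted p = 0.00644 and -0.88 ± 0.21, adjusted p = 0.0157.

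Of 30 genes of TGF-beta and BMP signalling, 24 were tested, and at day 30 3 were higher and 0 were lower, beside 8.33% and 16.4% of all genes tested, with a median log2 fold change of -0.0042. Over both days, 6 of the 24 were higher and 4 were lower, beside 14.5% and 26.1% of all genes tested. Id2, a target of BMP signals, was the most abundant and varied widely, with a log2 fold change of -0.69 ± 0.41, adjusted p = 0.276. Bmp6 and Bmp5, ligands of the BMP family, rose at 0.64 ± 0.12, adjusted p = 0.00459 and 0.33 ± 0.11, adjusted p = 0.0478. The call of Bmp5 was lost without the Con mouse of column 11, the Con mouse of column 12 or CR replicate 1 of day 30 (adjusted p from 0.116 to 0.150). Of 22 integrins and matrix receptors, 14 were tested, 1 rose and 1 fell at day 30. Sdc4, a heparan sulfate receptor, was the most abundant at 0.23 ± 0.10, adjusted p = 0.147, and passed with median-ratio scaling (adjusted p = 0.0351). Itgb3 and Sdc2 were the 2 called genes at 0.36 ± 0.12, adjusted p = 0.0704 and -0.39 ± 0.13, adjusted p = 0.0691. The call of Itgb3 was lost without the Con mouse of column 10, the Con mouse of column 11, the Con mouse of column 12, CR replicate 1 of day 30 or CR replicate 3 of day 30 (adjusted p from 0.108 to 0.209), and that of Sdc2 without the Con mouse of column 10, the Con mouse of column 12, CR replicate 1 of day 30 or CR replicate 2 of day 30 (adjusted p from 0.102 to 0.220), with median-ratio scaling (adjusted p = 0.141) and without a filter (adjusted p = 0.101).

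Other cell type markers were set beside the members, in lists chosen with earlier results of these data known. The p-values of these lists are therefore no independent support for a shift of a cell type. Of 16 other sinusoidal endothelial markers, 15 were tested, 6 were higher at day 30 and 0 were lower, with a median log2 fold change of 0.36. Gpihbp1, which anchors lipoprotein lipase, was the most abundant at 0.56 ± 0.22, adjusted p = 0.110, and passed without Con replicate 1 of day 25, Con replicate 2 of day 25 or CR replicate 3 of day 30 (adjusted p from 0.0686 to 0.0776) and with a filter of FPKM 5, median-ratio scaling, TPM, quantile normalization or only the groups compared in the model (adjusted p from 0.0564 to 0.0994), and Ehd3 and Bmp6 had the smallest adjusted p, with Ehd3 at 0.94 ± 0.15, adjusted p = 0.00184. The summed FPKM of the list was 88.9, 111 and 83.7 in Con mice and 107, 109 and 129.9 in CR mice at day 25. At day 30 it was 101, 85.3 and 91.0 in Con mice and 129, 131 and 133 in CR mice. The CR mice at day 30 were close together and above all Con mice, and the 6 CR against 6 Con mice gave adjusted p = 0.0195 over 9 marker lists (exact permutation test over all 12 mice, which ignores day, here and for the lists that follow). The 5 members of this cell type summed to 38.9, 52.8 and 35.7 in Con mice and 46.5, 50.05 and 57.2 in CR mice at day 25 and to 38.4, 36.8 and 37.3 in Con mice and 56.6, 48.2 and 51.0 in CR mice at day 30.

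Of 18 other stellate cell markers, 12 were tested, 2 were higher at day 30 and 0 were lower. Colec11, a soluble lectin, was the most abundant at 0.43 ± 0.19, adjusted p = 0.133, and passed without the Con mouse of column 10 (adjusted p = 0.0486) and with median-ratio scaling or quantile normalization (adjusted p from 0.0604 to 0.0611), and Cygb, a globin of stellate cells, and Colec10 were the called genes at 0.44 ± 0.11, adjusted p = 0.0220 and 0.28 ± 0.086, adjusted p = 0.0417. The call of Colec10 was lost without the Con mouse of column 11 or CR replicate 3 of day 30 (adjusted p from 0.116 to 0.133) and with TPM (adjusted p = 0.101). Gfap, a stellate filament marker picked after its values were seen, was low at 0.0400 to 0.228 FPKM. The list summed to 47.3, 50.8 and 46.4 in Con mice and 49.3, 62.5 and 47.0 in CR mice at day 25. It summed to 57.0, 43.6 and 38.7 in Con mice and 58.3, 55.7 and 52.9 in CR mice at day 30. Con and CR mice overlapped at each day, and 6 against 6 mice gave adjusted p = 0.0828 (exact permutation test). The 4 stellate members summed to 6.45, 6.67 and 5.66 in Con mice and 8.95, 10.4 and 7.15 in CR mice at day 25 and to 8.52, 6.66 and 4.78 in Con mice and 8.29, 10.6 and 8.44 in CR mice at day 30.

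Of 26 other endothelial markers, 18 were tested, and at day 30 4 were higher and 1 was lower. Eng, a TGF-beta co-receptor, was the most abundant at 0.29 ± 0.14, adjusted p = 0.164, and passed without Con replicate 2 of day 25 or the Con mouse of column 10 (adjusted p from 0.0774 to 0.0809) and with median-ratio scaling or quantile normalization (adjusted p from 0.0595 to 0.0722), Esam and Plvap rose at 0.53 ± 0.11, adjusted p = 0.00793 and 0.48 ± 0.15, adjusted p = 0.0407, and Nrp1, a VEGF co-receptor, fell at -0.69 ± 0.16, adjusted p = 0.0148. The call of Plvap was lost without the Con mouse of column 11, the Con mouse of column 12 or CR replicate 1 of day 30 (adjusted p from 0.130 to 0.158). Genes of the list summed to 67.7, 84.6 and 63.3 in Con mice and 78.4, 81.3 and 80.3 in CR mice at day 25. At day 30, it summed to 74.7, 74.7 and 64.4 in Con mice and 86.1, 81.1 and 79.0 in CR mice, where every CR mouse was above every Con mouse. The exact permutation test of 6 against 6 mice gave adjusted p = 0.0390. Of 13 fibroblast and smooth muscle markers, 4 were tested and 0 passed at either day in limma or voom, with 0 and 1 at an unadjusted p under 0.05. The most abundant was Gsn, at -0.035 ± 0.28, adjusted p = 0.943, whose sign turned with median-ratio scaling and quantile normalization. The list summed to 11.3, 15.8 and 8.64 in Con mice and 12.1, 13.4 and 8.41 in CR mice at day 25. It summed to 9.75, 10.1 and 8.90 in Con mice and 9.01, 16.6 and 10.7 in CR mice at day 30, with overlapping groups and adjusted p = 0.567 for 6 against 6 mice in the exact permutation test.

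Of 17 Kupffer cell and macrophage markers, 13 were tested, 8 were lower at day 25 and 0 were higher, beside 9.34% and 5.60% of all genes tested. At day 30 2 were higher and 0 were lower, beside 8.33% and 16.4%, and over both days 8 were lower and 1 was higher, beside 26.1% and 14.5%. The difference between days passed for 0 of the 13 in limma and in voom, with 2 at an unadjusted p under 0.05. Cd5l, the most abundant, was at -0.78 ± 0.22, adjusted p = 0.0461 at day 25 and at -0.23 ± 0.22, adjusted p = 0.492 at day 30. At day 30, the log2 fold change was negative for 10 of the 13 and positive for 3, with a median of -0.16. Marco and Cd163, scavenger receptors, were higher at day 30 at 0.79 ± 0.23, adjusted p = 0.0349 and 0.43 ± 0.15, adjusted p = 0.0637. The call of Marco was lost without the Con mouse of column 12 or CR replicate 1 of day 30 (adjusted p from 0.111 to 0.142), and that of Cd163 without the Con mouse of column 10, the Con mouse of column 12, CR replicate 1 of day 30 or CR replicate 3 of day 30 (adjusted p from 0.129 to 0.186) and without a filter (adjusted p = 0.122). Genes of the list summed to 91.0, 149 and 90.5 in Con mice and 56.5, 71.7 and 64.8 in CR mice at day 25. It summed to 113, 105 and 79.0 in Con mice and 78.1, 105 and 74.2 in CR mice at day 30. At day 25 every CR mouse was below every Con mouse, at day 30 the groups overlapped, and 6 against 6 mice gave adjusted p = 0.0390 (exact permutation test). Their part in the results of the members was not tested.

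Of 12 hepatocyte markers, 11 matched, 11 were tested, and at day 30 4 were higher and 2 were lower, beside 8.33% and 16.4% of all genes tested. All CR mice were above all Con mice for 3 of the 11 and below them for 4, and the median log2 fold change was 0.12. Alb, albumin, was the most abundant at a mean of 36892 FPKM, with a log2 fold change of 0.64 ± 0.14, adjusted p = 0.00791. Pck1 rose at 1.02 ± 0.18, adjusted p = 0.00344, and Fga and Apob were lower at -0.28 ± 0.11, adjusted p = 0.0856 and -0.44 ± 0.17, adjusted p = 0.0943. The call of Fga was lost without Con replicate 3 of day 25, CR replicate 1 of day 25, CR replicate 3 of day 25, the Con mouse of column 10, the Con mouse of column 11, the Con mouse of column 12, CR replicate 1 of day 30 or CR replicate 3 of day 30 (adjusted p from 0.102 to 0.271). That of Apob was lost without Con replicate 2 of day 25, Con replicate 3 of day 25, CR replicate 1 of day 25, CR replicate 3 of day 25, the Con mouse of column 10, the Con mouse of column 11, the Con mouse of column 12, CR replicate 1 of day 30 or CR replicate 2 of day 30 (adjusted p from 0.101 to 0.342). The call of Fga was also lost with no filter, median-ratio scaling, quantile normalization or only the groups compared in the model (adjusted p from 0.158 to 0.270), and that of Apob with no filter, median-ratio scaling, TPM, quantile normalization or only the groups compared in the model (adjusted p from 0.108 to 0.185). Without a filter, adjusted p of Alb was 0.592, and quantile normalization holds this top-ranked gene at 1 value in all mice. The list summed to 54121, 54037 and 60692 in Con mice and 61539, 64575 and 63520.2 in CR mice at day 25. It summed to 53945, 44754 and 49644 in Con mice and 73055, 63349 and 67268 in CR mice at day 30, above the Con mice in all 6 CR mice, with adjusted p = 0.00974 for 6 against 6 mice (exact permutation test). Alb makes up most of these sums, so their test may largely repeat the result of Alb and does not stand for the list as a whole. As for the liver label, hepatocyte markers had the highest summed FPKM of the cell type lists, and their part in the results was not tested.

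Of 8 cholangiocyte markers, 3 were tested, and results of single genes of this list, called or not, are left out here. Genes of the list summed to 24.9, 23.5 and 20.2 in Con mice and 20.4, 19.2 and 10.9 in CR mice at day 25 and to 16.8, 17.3 and 20.6 in Con mice and 17.7, 15.4 and 16.2 in CR mice at day 30. Groups overlapped at each day, and the exact permutation test of 6 against 6 mice gave adjusted p = 0.0807. Of 12 lymphocyte markers, 0 passed the filter, and Ptprc was the most abundant at a mean of 0.651 FPKM. The list summed to 2.94, 2.34 and 2.71 in Con mice and 1.39, 1.67 and 1.34 in CR mice at day 25. It summed to 4.13, 2.70 and 3.43 in Con mice and 1.94, 2.75 and 1.398 in CR mice at day 30, and adjusted p was 0.0195 for 6 against 6 mice in the exact permutation test.

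Of 8 neutrophil and erythroid markers, only Alas2, the erythroid enzyme of haem synthesis, was tested, and it was lower in CR mice at -1.49 ± 0.21, adjusted p = 0.000974. Ly6g was at 0 in all libraries. Alas2 had a mean of 28.7 FPKM and makes up most of the sums of this list, so their test largely repeats its result. Genes of the list summed to 32.4, 35.3 and 36.5 in Con mice and 22.5, 28.3 and 14.1 in CR mice at day 25. At day 30, it summed to 47.6, 42.1 and 44.7 in Con mice and 14.96, 20.8 and 11.8 in CR mice, with every CR mouse below every Con mouse and adjusted p = 0.00974 for 6 against 6 mice (exact permutation test).

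**Figure D3:**
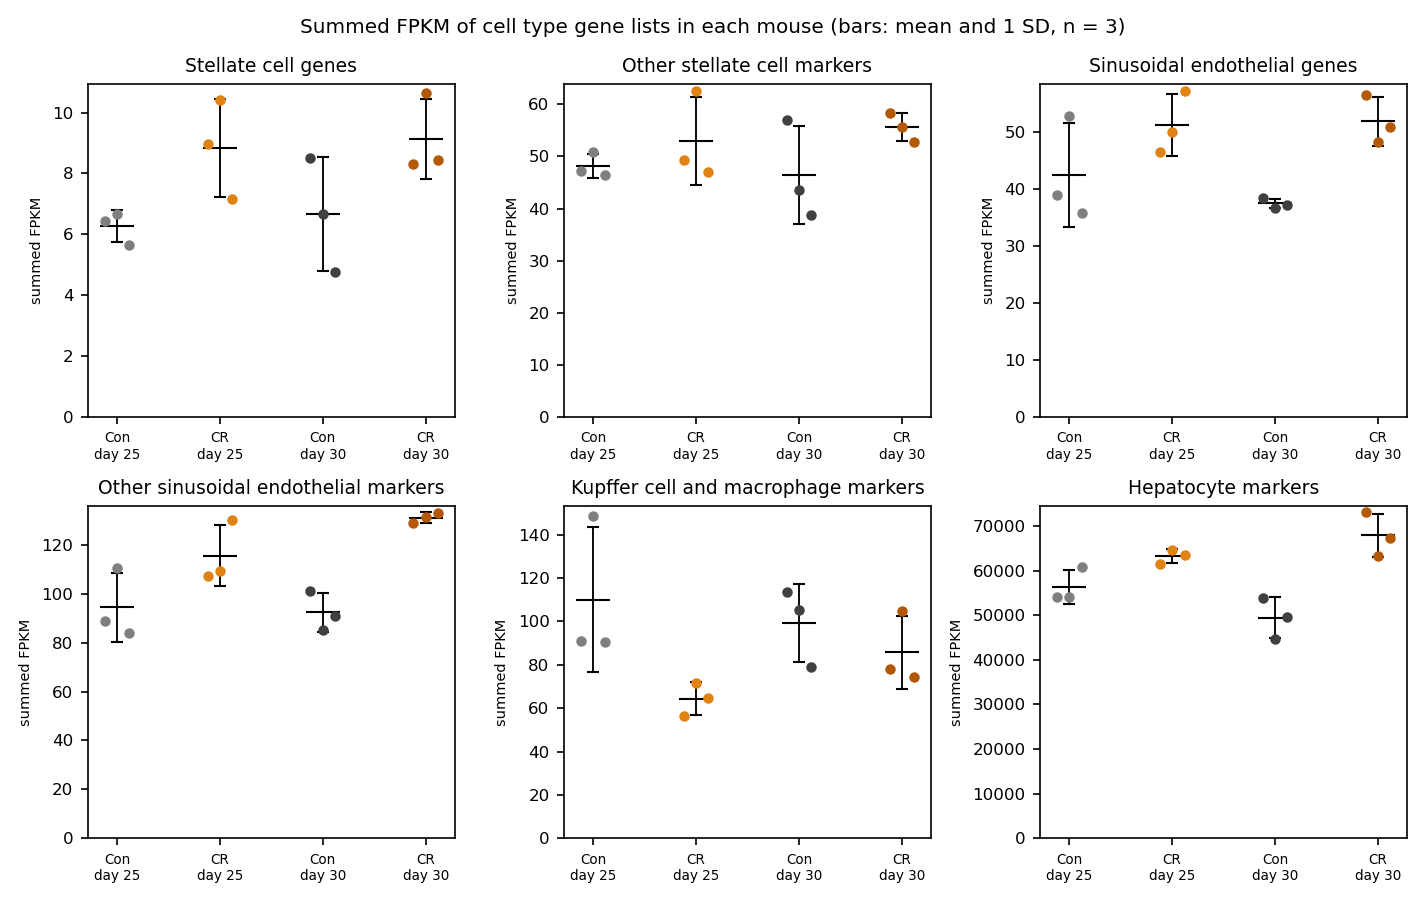
Summed FPKM of 6 cell type gene lists in each mouse by diet and day, with points for single mice and bars for the mean and 1 SD of 3 mice per group. Stellate and sinusoidal endothelial lists are higher on average in CR mice at both days. For the other stellate cell markers at day 25 this rests on CR replicate 2, at 62.5 against 49.3 and 47.0 in the other CR mice. Con mice there were at 47.3, 50.8 and 46.4. Kupffer cell and macrophage markers are lower in CR mice at day 25, and the sum of hepatocyte markers, of which Alb is the most abundant, is higher in CR mice.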

How the data were processed

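Liver RNA of 12 mice was sequenced as paired-end reads on a single lane. The submitters' processing notes name CASAVA 1.8.2, BWA and mm10. BWA does not split reads over introns, so reads over exon junctions may be missing from the FPKM. The deposited values are FPKM, computed by the authors in HOMER over the exons of 1 RefSeq transcript per gene, with no scaling between libraries and no strand option in the header. Without strand, reads of a gene and of its antisense partner cannot be told apart. Low FPKM values fall on steps of 1 read, which gave back the depth and read numbers (100% of 1500 values per library were whole within 0.1 reads), and at 15748932 to 23345810 reads per library, genes with few reads are measured with low precision.

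Genes that reached an FPKM of 1 in 3 or more libraries were fitted in limma 3.58.1 (R 4.3.3) on the log2(FPKM + 1) scale. The 4 groups shared 1 model, moderated with a trend on mean level, from which came the diet contrast of each day, the interaction and the day contrast of each diet. A separate fit pooled both days with day as a covariate. The threshold was p under 0.1 after Benjamini-Hochberg adjustment across all genes tested, and a stricter rule also asked for a difference of 1 or more on the log2 scale. Tests were 2-sided. The model was also run on simulated counts with a fixed dispersion and no shift in scaling between libraries. That run therefore does not speak to how calls move with the scaling. Summed FPKM of cell type marker lists were compared by exact permutation tests over mice, which ignore day where 6 mice stand against 6 and cannot give a p below 0.1 with 3 against 3. Other steps used Python 3.11.15 with numpy 2.4.6, pandas 2.3.3 and, for plots, matplotlib 3.10.9. Promoters are from RefSeq, GRCm38.p6, and shared sequence was looked up in GENCODE vM21.

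The members and lists were chosen with earlier results of these data known. Values in every mouse are given for the most abundant member of each role and for members past the threshold at either day or over both days. From each other list the most abundant gene and up to 2 genes per direction with the smallest adjusted p at day 30 are named, and a gene outside this rule is marked as picked after its values were seen. Results of some genes that this rule names are not reported here.

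Replicate numbers at day 25 come from the sample labels and belong to different animals. The deviations of same-numbered Con and CR mice from their group means had correlations of 0.368, 0.306 and 0.106. A replicate block by number was therefore also fitted at day 25, and 6 members passed with it. The main results at that day come from the model without this block, which ignores any such pairing. Alternatives were pseudocounts of 0.1 and 0.5, no filter or one of FPKM 5, median-ratio scaling, TPM, quantile normalization, no trend, only the groups compared in the model, voom on recovered reads, each mouse left out in turn, and the replicate block.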

Additional observations from a re-analysis of the deposited data

How the results depend on the processing

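At day 30, Timp3, Ecm1, Bmp2, Ctgf, Lum and Dcn passed under every alternative that tested them, and over both days 12 of the 14 members did, the exceptions being Des and Lum. The number of members that passed moved by over 1.5 times only where stated here. At day 25 it was 3 without a filter and 2 with a filter of FPKM 5, and from 1 to 6 with 1 mouse left out. Over both days it was 8 with a filter of FPKM 5, which tests fewer members. At day 30 it was from 7 to 13 with 1 mouse left out, and from 1 to 2 with the fold threshold added. Within CR mice between days it was from 0 to 1 (Lyve1, without CR replicate 2 at day 30), and within Con mice from 0 to 1 (Ctgf, without Con replicate 1 at day 25). The median of the members at day 25 was 0.17 with a filter of FPKM 5, 0.032 without a filter, 0.11 with median-ratio scaling and with quantile normalization, and from -0.0076 to 0.15 with 1 mouse left out, so its sign rests on Con replicate 3. At day 30 it was 0.21 without a filter, 0.41 with voom and from 0.18 to 0.37 with 1 mouse left out. Over both days it was 0.31 with a filter of FPKM 5. The cause was not tested.

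Signs of single genes turned only for values that did not pass. With median-ratio scaling at day 25, the sign turned for Col14a1 0.045, Col6a1 0.031, Lamb1 0.0017, Lum 0.034 and Pecam1 0.0083. With quantile normalization at day 25, the sign turned for Col14a1 0.058, Col6a1 0.049, Col18a1 -0.020, Lamb1 0.036, Hspg2 0.0041, Lum 0.055 and Pecam1 0.019. With TPM at day 25, the sign turned for Bgn -0.0038. With median-ratio scaling at day 30, the sign turned for Col18a1 0.0078, Lamc1 0.050, Vtn 0.054 and Gsn 0.024. With a pseudocount of 0.1 at day 30, the sign turned for Lamb1 -0.0025 and Lyve1 -0.010. With TPM at day 30, the sign turned for Lamb1 -0.023 and Lyve1 -0.033. With voom at day 30, the sign turned for Lamb1 -0.018 and Lyve1 -0.037. With quantile normalization at day 30, the sign turned for Lamc1 0.081, Vtn 0.048 and Gsn 0.060. With a pseudocount of 0.5 at day 30, the sign turned for Lyve1 -0.0022. With 1 mouse left out at a time, the day 25 log2 fold change spanned 0 for Col3a1 from -0.0092 to 0.45, Col14a1 from -0.13 to 0.17, Col6a1 from -0.15 to 0.11, Col18a1 from -0.026 to 0.15, Fn1 from -0.14 to 0.015, Lamb1 from -0.10 to 0.010, Hspg2 from -0.10 to 0.015, Sparc from -0.017 to 0.19, Lum from -0.10 to 0.10, Bgn from -0.065 to 0.066, Tgfb1 from -0.022 to 0.22, Ctgf from -0.090 to 0.33, Pecam1 from -0.16 to 0.11, Kdr from -0.093 to 0.31 and Mmrn2 from -0.26 to 0.040. With 1 mouse left out at a time, the day 30 log2 fold change spanned 0 for Fn1 from -0.045 to 0.15, Lamb1 from -0.12 to 0.12, Lamc1 from -0.073 to 0.067, Dpt from -0.060 to 0.27, Timp2 from -0.027 to 0.22, Lrat from -0.029 to 0.40, Pdgfrb from -0.0055 to 0.16, Lyve1 from -0.20 to 0.15, Cdh5 from -0.059 to 0.10, Vtn from -0.10 to 0.041 and Gsn from -0.32 to 0.12.

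With the replicate block at day 25, the call of Ecm1 was gained and no other call of a member changed. At day 30 the mice share only a number. The correlations of same-numbered mice there were from 0.0457 to 0.181, and not every mouse correlated best with its own number. The replicate block gave 14 members against 12, since Des was lost (adjusted p = 0.144) and Sparc, Pecam1 and Kdr were gained (adjusted p = 0.0726, 0.0872 and 0.0672). Of the list genes named, it lost Itgb3, Fga and Apob (adjusted p = 0.106, 0.109 and 0.109) and gained Id2, Colec11 and Gpihbp1 (adjusted p = 0.0811, 0.0740 and 0.0883). The alternatives for genes named from the other lists were chosen after seeing the data. Groups of 3 mice, FPKM in place of counts and genes with few reads limit what could be detected, and cell counts were not analysed here.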
